A study of Mus musculus with 50 samples.

Results

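Mouse embryonic stem cells labelled as lacking Suv39h1 and Suv39h2 were compared with cells that lacked G9a (gene Ehmt2) as well, to see which genes change when G9a is removed from cells already without both Suv39h enzymes. Members were the genes at 1 TPM or more (a transcript level scaled for length and for the library total) in at least 2 of the 4 libraries compared, 12418 of the 24412 genes in the table. The Suv39h1/2-DKO group (DKO below) and the G9a;Suv39h1/2-TKO group (TKO below) had 2 libraries each, from mouse embryonic stem cells of strain TT2. Both groups were labelled as lacking Suv39h1 and Suv39h2 and had the same title label NT, which the labels do not explain, and each genotype came under a single line name (SE for DKO, 3S1G for TKO), so a difference of line and a difference of genotype cannot be told apart. G9a loss in cells with intact Suv39h genes was read from 2 G9a-KO and 2 control libraries of the same table, which share no library with the TKO and DKO groups. Control and G9a-KO also came under a single line name each, so a difference between backgrounds cannot be told apart from a difference of line either. A separately normalised table held the DKO and TKO genotypes again, 2 libraries each, in lines that also lacked Dux by their genotype field, carried a doxycycline-inducible Dux transgene (Tet-on-Dux) and had dose label 0. The labels did not call the 2 libraries of a group separate cultures. Each p-value rests on the spread between libraries within groups, pooled over all groups of its table, and this spread may be technical.

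Methylation of lysine 9 on histone H3 is a mark of silent chromatin. G9a, which works as a dimer with the related enzyme Ehmt1 (GLP), places mainly the mono- and dimethylated forms in gene-rich chromatin, whereas Suv39h1 and Suv39h2 place the trimethylated form, chiefly at the repeats around centromeres. In embryonic stem cells G9a is known for the silencing of germ cell genes and of genes of the 2-cell embryo, the stage at which the mouse genome is first transcribed in earnest.

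The targeted gene was checked first. Ehmt2 stood at 89.2 and 92.4 TPM in the DKO libraries and at 30.2 and 22.7 TPM in the TKO libraries, a log2 fold change of -1.75 ± 0.13 (standard error of the limma model, as for every error below) with an adjusted p of 1.7e-07. The RNA was lower in both TKO libraries but not gone, and gene TPM does not show which exons the remaining reads came from. Ehmt2 RNA fell further in G9a-KO, to 15.6 and 14.6 TPM from 83.6 and 91.1 in control (-2.46 ± 0.13, limma adjusted p = 3.0e-09). The difference between these 2 changes was 0.70 ± 0.19 (limma adjusted p = 0.047), below the size set for a call. Suv39h1 was at 22.9 and 22.4 TPM in DKO against 14.3 and 12.8 in TKO (log2 fold change -0.70 ± 0.13, adjusted p = 8.7e-04) and so below the size set for a call. Suv39h2 was at 14 and 14.85 against 12.1 and 13.4 TPM. In control cells Suv39h1 was at 34.0 and 31.7 TPM and Suv39h2 at 21.0 and 20.7 TPM, so much of the RNA of both genes remained in the libraries labelled Suv39h1/2-DKO, and gene TPM does not bear out that label at the RNA level. Setdb1, which encodes a further H3K9 methyltransferase and is not named as lost in the label of either group, was at 41.4 and 46.3 against 44.9 and 48.0 TPM. Other libraries under the same line names, titled OHT in place of NT, were labelled as lacking Setdb1 as well. The 4 libraries had 11855 to 12278 genes at 1 TPM or more, and their 10 most abundant genes took 6.07% to 6.69% of all TPM. Read depth is unknown, since TPM keeps no counts.

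More members rose than fell when G9a was lost on this background. A call required limma's adjusted p (Benjamini-Hochberg over all 13862 genes tested) to lie below 0.05 and the log2 fold change to reach 1 in either direction. By that rule 603 members were higher and 253 were lower in TKO, where the background over all genes tested was 4.41% higher and 1.83% lower. Without the size rule, 1798 members were higher and 1498 lower. The median log2 change over members was 0.05, and the quartiles were -0.18 and 0.26. Rises were also larger: 166 of the members called higher changed by 2 or more on the log2 scale, against 11 of those called lower. The members called higher had a median level of 1.01 TPM in DKO and 7.36 TPM in TKO, those called lower 12.9 and 4.06 TPM. Rises were most frequent among genes near silence in DKO cells: 301 of the 607 members with a mean under 1 TPM in DKO were called higher, 40 of the 4326 members at 20 to 100 TPM, and 5 of the 1634 above 100 TPM. The rule for membership has a share in this, because 530 members were below 1 TPM in both DKO libraries and so entered through TKO alone (290 of them called higher, 240 not called), and 195 entered through DKO alone (29 called lower). Among the 11693 members with 1 TPM or more in a library of each group, 313 were higher and 224 lower. Separation of the libraries alone says little with 2 against 2: both TKO libraries lay above both DKO libraries in 37.3% of all members and below them in 28.8%.

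**Figure D1:**
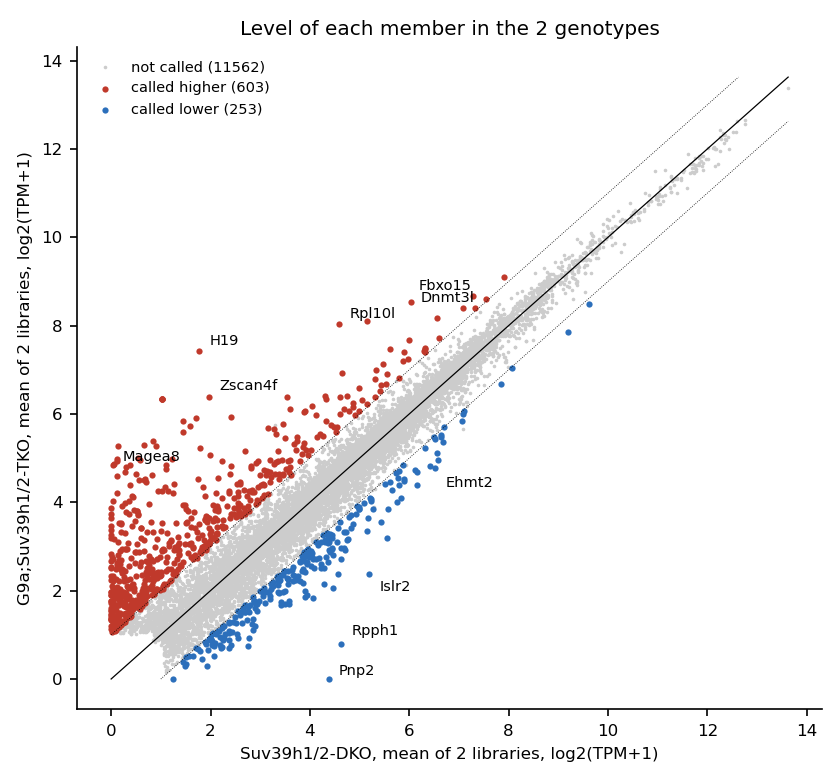
Level of each of the 12418 members in Suv39h1/2-DKO (x axis) and G9a;Suv39h1/2-TKO (y axis), as log2(TPM+1) of the mean of 2 libraries; the solid line marks equal levels and the dotted lines a difference of 1. The 603 members called higher (red) crowd at the low end of the x axis, whereas the 253 called lower (blue) lie along the middle of the range, with Pnp2 and Rpph1 far below the rest.

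The 12 largest rises among members with established names included noncoding RNAs of imprinted loci, 2-cell genes and X-linked genes. H19, an imprinted noncoding RNA, stood at 2.23 and 2.57 TPM in DKO and at 182 and 158 TPM in TKO, a log2 fold change of 5.65 ± 0.11 (adjusted p = 1.1e-13). Efhc2, an X-linked gene, went from 0.553 and 0.619 to 33.7 and 43.3 TPM (log2 fold change 4.63 ± 0.15, adjusted p = 2.1e-11). The antisense transcript Ptprtos was at 0.172 and 0.304 TPM in DKO and at 27.3 and 26.0 TPM in TKO (adjusted p = 2.5e-11). Library values that do not overlap were a condition for entry among these 12. The others of the 12 were Pramel6, Pramel7, Zscan4f, Zscan4c, Usp17lc and Obox4 of the 2-cell list, Magea8 of the X-linked list, and the imprinted RNAs Rian and Meg3.

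Genes of the 2-cell embryo formed the most numerous group of rises. Of 67 listed genes in the table, 55 were members, and 46 of these were called higher and none lower, with a median log2 change of 2.62 against 0.05 over all members. In the list, 41 members reached 1 TPM in a single group. Of the 14 that were at 1 TPM or more in a library of each group, 9 were called higher. The summed level of the list was 137 and 153 TPM in the DKO libraries against 892 and 991 TPM in the TKO libraries. Many of these genes are near-identical copies, and no source used here says how reads were shared between them, so a value for any copy is uncertain.

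Zscan4f and Zscan4c encode zinc finger proteins made at the 2-cell stage. Zscan4f was at 2.39 and 3.46 TPM in DKO and at 80.9 and 85.2 TPM in TKO (log2 fold change 4.43 ± 0.14, adjusted p = 1.5e-11), and Zscan4c at 1.66 and 2.34 against 48.9 and 55.3 TPM (4.15 ± 0.15, adjusted p = 6.9e-11). Obox4, an oocyte-specific type of homeobox gene, went from 0.458 and 0.533 to 30.5 and 29.2 TPM, and the deubiquitinase gene Usp17lc from 0.370 and 0.0508 to 23.2 and 26.0 TPM. All 4 were chosen as largest rises. Pramel6 and Pramel7, leucine-rich repeat genes of the Prame family, were at 0 and 0.184 and at 0.332 and 0.258 TPM in DKO, and at 27.8 and 33.7 and at 26.0 and 29.2 TPM in TKO. Gm21304 rose from 1.21 and 0.842 to 77.6 and 83.5 TPM. Its values were identical in every library to those of Gm21293, Gm6763 and Gm8764, so the 4 entries are 1 measurement. Gm4340 of the same gene cluster was at 0 and 1.57 against 48.6 and 32.7 TPM.

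Dux, the homeobox gene that switches on much of the 2-cell program, was itself low: 0.266 and 0.207 TPM in DKO and 1.77 and 1.84 TPM in TKO, a log2 change of 1.18 ± 0.12 (adjusted p = 3.9e-06). It was chosen for naming after its values were seen. The members of the list that were expressed at the highest level without a call, the elongation factor subunit gene Nelfa and the zinc finger gene Zfp932, were at 59.4 and 62.1 against 84.0 and 80.1 TPM and at 26.0 and 27.8 against 27 and 34.3 TPM.

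The start regions of Zscan4c and Zscan4f are shown because they let a reader see how alike the copies are over which the rise was measured. They come from RefSeq (GRCm38.p6), run from 250 bases before to 50 bases after the annotated start, at chr7:11005495-11005794 and chr7:11397665-11397964 (both plus strand), and have CpG dinucleotides in capitals. Over 277 aligned bases they were 99.3% identical. They hold 4 and 3 CpG.
Zscan4c: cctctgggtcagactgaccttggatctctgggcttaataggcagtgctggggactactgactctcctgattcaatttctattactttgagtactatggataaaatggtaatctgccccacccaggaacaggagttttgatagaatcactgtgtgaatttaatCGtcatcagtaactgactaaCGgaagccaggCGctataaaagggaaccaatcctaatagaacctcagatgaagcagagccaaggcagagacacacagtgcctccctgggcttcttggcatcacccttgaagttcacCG
Zscan4f: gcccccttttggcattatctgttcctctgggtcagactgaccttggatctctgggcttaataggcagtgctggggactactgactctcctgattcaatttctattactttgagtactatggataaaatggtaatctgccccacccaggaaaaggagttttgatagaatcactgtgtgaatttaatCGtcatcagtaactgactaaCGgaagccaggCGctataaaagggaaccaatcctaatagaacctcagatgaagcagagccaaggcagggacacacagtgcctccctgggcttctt

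X-linked testis antigen genes, led by the Magea cluster, were near or at 0 in DKO and rose in TKO. Of 33 listed genes measured, 21 were members. Of these, 19 were called higher and none lower, and the median log2 change was 3.10. Because 18 of the 21 reached 1 TPM in a single group, the count is set in part by the rule for membership. The summed level of the list was 47.1 and 50.9 TPM in DKO and 258 and 309 TPM in TKO. Magea8 was at 0 and 0.0424 TPM in DKO and at 26.4 and 29.3 TPM in TKO (adjusted p = 3.4e-12), and Magea5 at 0.0509 and 0 against 14.7 and 15.9 TPM. Magea2, Magea3 and Magea6 were listed at 0 in both DKO libraries, and stood at 10.1 and 12.8, 7.2 and 8.96, and 4.47 and 4.88 TPM in TKO. Xlr3b, of the X-linked lymphocyte-regulated family, rose from 0.536 and 0.635 to 19.6 and 23.9 TPM (log2 fold change 3.84 ± 0.22, adjusted p = 6.3e-09). Xlr5b and Xlr5c were listed at 0 in DKO and reached 10.1 and 14.6 and 8.50 and 8.78 TPM. The members without a call were Mageb16 and Nxt2. Mageb16 was already at 39.5 and 42.5 TPM in DKO and at 68.9 and 87.0 in TKO. Its log2 change of 0.90 ± 0.15 (limma adjusted p = 4.3e-04) was short of the size for a call. Nxt2 was at 3.62 and 3.49 against 2.43 and 3.39 TPM.

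The start regions of Magea8 and Magea2, neighbours in the Magea cluster, are printed because these genes moved from silence together yet ended at different levels. They are RefSeq windows of the same kind at chrX:154995801-154996100 and chrX:155033243-155033542 (both minus strand, GRCm38.p6), again with CpG in capitals. They shared 92.6% of 285 aligned bases and hold 10 and 9 CpG, whereas the Magea5 window, which aligned to that of Magea8 at 69.7% identity, holds none.
Magea8: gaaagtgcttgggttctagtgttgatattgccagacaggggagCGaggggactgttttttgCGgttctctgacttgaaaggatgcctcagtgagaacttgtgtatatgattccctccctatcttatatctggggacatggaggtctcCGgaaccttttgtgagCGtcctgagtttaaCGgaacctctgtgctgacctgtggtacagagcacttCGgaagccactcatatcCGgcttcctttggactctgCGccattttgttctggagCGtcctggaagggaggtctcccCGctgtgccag
Magea2: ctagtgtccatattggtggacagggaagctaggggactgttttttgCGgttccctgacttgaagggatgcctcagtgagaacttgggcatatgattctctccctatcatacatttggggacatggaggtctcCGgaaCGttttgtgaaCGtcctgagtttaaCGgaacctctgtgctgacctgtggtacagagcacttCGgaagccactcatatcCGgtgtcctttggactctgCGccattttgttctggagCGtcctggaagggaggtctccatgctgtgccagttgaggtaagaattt

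Germ cell genes changed as a minority. Of 51 members of that list, 15 were called higher and 2 lower, and the median log2 change was 0.27. Of the 45 members at 1 TPM or more in a library of each group, 9 were higher and 2 lower. Rpl10l, a testis-expressed copy of a ribosomal protein gene, went from 21.5 and 24.7 to 261 and 264 TPM (log2 fold change 3.45 ± 0.09, adjusted p = 3.4e-12). Rhox5, an X-linked homeobox gene, went from 33.8 and 35.5 to 286 and 267 TPM (2.96 ± 0.12, adjusted p = 2.4e-10), and Rhox2a of the same cluster from a listed 0 to 11.3 and 8.86 TPM. Asz1, which acts in the piRNA pathway of male germ cells, was at 0.224 and 0.0796 against 8.67 and 12.2 TPM (3.30 ± 0.15, adjusted p = 7.7e-10). These 4 were the called members of the list with the largest changes.

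Of the 51 germ cell members 2 were called lower, where the share over all members was 2.04%. Both act in meiosis. Dmc1, the meiotic recombinase, was at 14.3 and 16.1 TPM in DKO and 4.77 and 5.02 TPM in TKO (-1.46 ± 0.13, adjusted p = 9.4e-07), and Stag3, a meiotic cohesin subunit, at 13.6 and 13.9 against 5.33 and 5.36 TPM (-1.21 ± 0.11, adjusted p = 1.8e-06). Rec8, the kleisin subunit of meiotic cohesin and not on the list, lies on chromosome 14, whose members were lower as a whole (below), and was among the 12 largest falls, from 18.5 and 18.2 to 3.32 and 3.58 TPM (-2.12 ± 0.14, adjusted p = 5.9e-08). Stra8, the gatekeeper of meiotic entry, was at 249 and 240 against 140 and 147 TPM (-0.77 ± 0.10, limma adjusted p = 3.7e-05). Syce2, of the synaptonemal complex, was at 155 and 147 against 116 and 115 TPM (-0.39 ± 0.12, limma adjusted p = 0.031). Both were short of the size for a call. Of the 11 members of PRC1.6, the Polycomb complex that represses germ cell genes, none was called. At the shares over all members, 4.86% higher and 2.04% lower, a list this small would hold few calls. Tfdp1 was at 275 and 292 against 234 and 238 TPM and Wdr5 at 180 and 177 against 152 and 156 TPM. At an unadjusted p below 0.05 in limma, with no size rule, none of the 11 was higher and 1 was lower.

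The start region of Asz1 differs from those of the Zscan4 genes in base composition. Its RefSeq window, chr6:18109012-18109311 on the minus strand (GRCm38.p6), holds 17 CpG, in capitals, against the 4 of Zscan4c printed above. It is shown because germ cell and 2-cell genes that rose differed in this count.
Asz1: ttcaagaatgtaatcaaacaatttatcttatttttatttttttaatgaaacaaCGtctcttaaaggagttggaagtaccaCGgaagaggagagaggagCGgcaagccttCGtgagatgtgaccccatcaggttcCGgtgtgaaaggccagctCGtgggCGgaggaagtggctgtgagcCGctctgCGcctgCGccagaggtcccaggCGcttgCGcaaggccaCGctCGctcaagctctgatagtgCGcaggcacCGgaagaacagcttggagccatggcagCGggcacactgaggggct

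The genes that rose had start regions with fewer CpG than other members, at the same median as all genes of the promoter table. RefSeq windows were found for 9428 of the 12418 members. The median number of CpG per 300 bases was 7 for the 425 matched members called higher, 18 for the 175 called lower and 21.5 for the 8828 not called, against 7 over all 27025 genes of the promoter table. The comparison was also made among low genes alone: among members with a mean under 1 TPM in DKO, the median was 5 for the 204 called higher and 15 for the 211 not called. Of the 607 members this low, 530 passed the filter through TKO alone, so these medians only describe genes that the filter chose. Called members of the 2-cell list had a median of 2 and those of the germline list 10. Copies in 1 family share their start sequence and are not independent. The E-box CACGTG, which Mga and Max of PRC1.6 bind and which reads the same on both strands, was present in 7.53% of the members called higher, 10.3% of those called lower and 12.3% of those not called, against 8.09% of all genes in the table. None of the 13 matched germ cell genes called higher held it in this window. A match of letters is not a bound site, and a missing match describes this window alone.

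Imprinted genes, which are read from 1 parental copy, were called higher for 15 of 47 members and lower for 1, with a median log2 change of 0.54. Among the 38 at 1 TPM or more in a library of each group, 9 were higher and 1 lower. Besides H19, the noncoding RNAs of the Dlk1-Dio3 region on chromosome 12 rose as neighbours: Rian from 0.141 and 0.0358 to 29.2 and 29.6 TPM (adjusted p = 1.7e-12), Meg3 from 0.167 and 0.0160 to 25.2 and 21.0 TPM (adjusted p = 1.3e-10) and Mirg from a listed 0 to 6.44 and 4.23 TPM. Peg3, a zinc finger gene read from the paternal copy, rose from 3.91 and 4.68 to 56.6 and 64.4 TPM (log2 fold change 3.54 ± 0.19, adjusted p = 4.9e-09). Phlda2 was the member that fell, from 38.5 and 31.1 to 12.9 and 10.01 TPM (-1.53 ± 0.20, adjusted p = 4.0e-05). Mirg and Phlda2 were named after their values were seen. The uncalled members of highest level, Gnas and Gab1, were at 274 and 267 against 279 and 242 TPM and at 172 and 185 against 192 and 196 TPM. The parental copy was not measured.

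**Figure D2:**
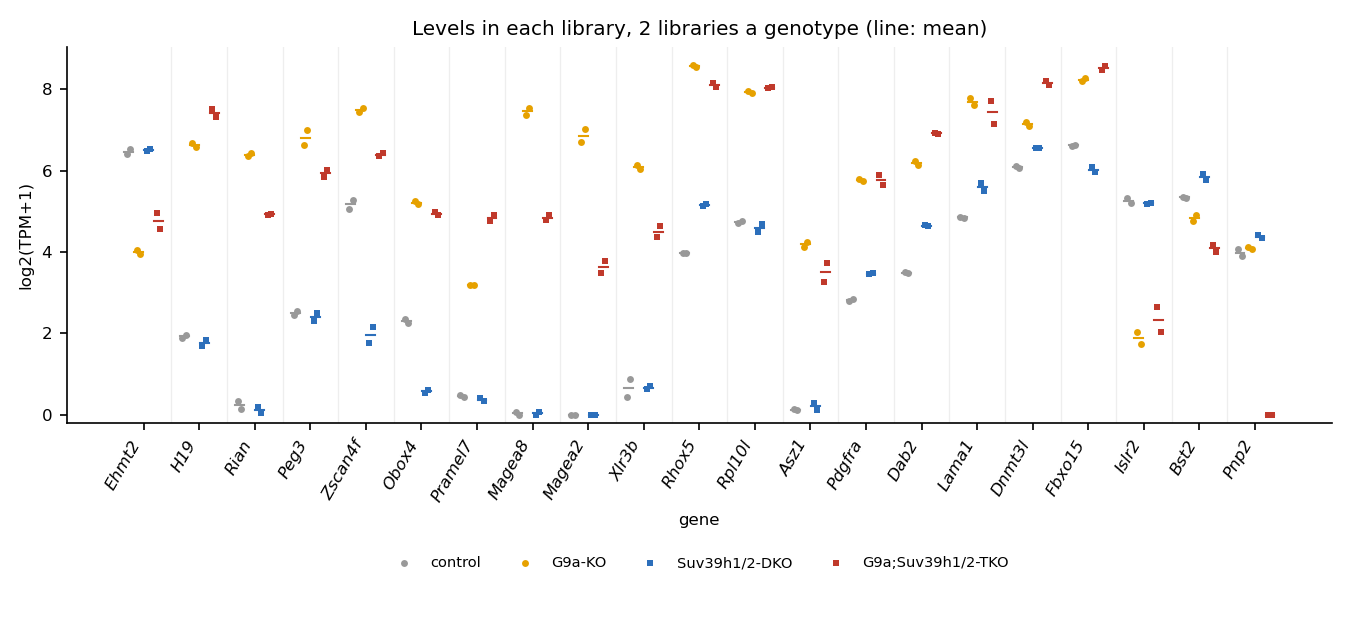
Level of 21 named genes in each library as log2(TPM+1), for control, G9a-KO, Suv39h1/2-DKO and G9a;Suv39h1/2-TKO cells; points are single libraries and short lines their mean. Zscan4f and Obox4 start lower in DKO (blue) than in control (grey), Magea8 and Magea2 end lower in TKO (red) than in G9a-KO (yellow), and Pnp2 is at 0 in TKO alone of the 4 groups.

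Genes of the primitive endoderm, the extraembryonic layer that lines the blastocyst cavity, rose together. All 17 genes of the factor and receptor list reached 1 TPM in a library of each group, and 14 were called higher and none lower, with a median log2 change of 1.38. Pdgfra, the receptor that marks the lineage, was at 9.93 and 10.1 TPM in DKO and 58.2 and 49.0 TPM in TKO (2.3 ± 0.19, adjusted p = 4.3e-07). The endocytic adaptor Dab2 was at 24.5 and 23.8 against 122 and 119 TPM (2.27 ± 0.14, adjusted p = 1.7e-08), and the receptor Cubn at 16.7 and 14.2 against 87.5 and 55.9 TPM. They were chosen as called members of the list. The uncalled Nid2, a basement membrane protein gene, was at 144 and 145 against 176 and 145 TPM. It lies on chromosome 14, whose members were lower as a whole (below). Cited1, a transcriptional coactivator gene, was at 7.36 and 5.51 against 11.6 and 10.3 TPM. Its log2 change of 0.70 ± 0.18 (limma adjusted p = 0.011) was short of the size for a call.

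Of 23 genes for the basement membrane and secretion of this layer, 10 were called higher and none lower (median log2 change 0.86). Lama1, a laminin chain, was at 50.9 and 44.6 TPM in DKO and 210 and 142 TPM in TKO (1.84 ± 0.23, adjusted p = 2.9e-05), and Lamb1 at 65.3 and 59.7 against 238 and 168 TPM (1.67 ± 0.21, adjusted p = 4.0e-05). Spink1, a protease inhibitor gene, was at 6.61 and 10.9 against 47.6 and 52.2 TPM, and S100g, a calcium-binding protein gene, at 9.25 and 9.34 against 26.6 and 32.4 TPM. The first TKO library was higher than the second for both laminins, and without it the count fell from 10 to 6. Lamc1 (173 and 167 against 366 and 263 TPM) and Apoe (820 and 706 against 800 and 526 TPM) were not called. The log2 change of Lamc1, 0.86 ± 0.21 (limma adjusted p = 0.0071), was short of the size rule alone. In bulk RNA a larger share of such cells and more RNA per cell cannot be told apart.

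The naive pluripotency list had 3 of 28 members called higher and none lower, against 4.86% and 2.04% of all members. Its median log2 change was -0.01. At an unadjusted p below 0.05 in limma, with no size rule, 10 were higher and 6 lower. Of the 27 members at 1 TPM or more in a library of each group, 2 were called higher and none lower. Pou5f1, the core factor Oct4, was at 2268 and 2250 TPM in DKO and 2007 and 1955 TPM in TKO, and Dppa5a at 4850 and 4614 against 2944 and 3536 TPM (log2 change -0.55 ± 0.12, adjusted p = 0.0038), short of the size for a call. Fbxo15 rose from 66.7 and 61.9 to 356 and 379 TPM (2.50 ± 0.08, adjusted p = 1.2e-11). Dppa3, a maternal factor that guards DNA methylation in the zygote, rose from 5.83 and 5.15 to 32.1 and 37.3 TPM (2.46 ± 0.17, adjusted p = 7.6e-08), and Spic, a transcription factor gene, from 0.131 and 0.291 to 1.41 and 2.02 TPM. The summed level of the list was 12450 and 12270 TPM in DKO and 10250 and 10790 TPM in TKO. These defining markers of embryonic stem cells were thus present in all 4 libraries.

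Among 9 writers and erasers of DNA methylation, Dnmt3l and Dnmt3b were called higher and none lower. Dnmt3l, the cofactor of the de novo enzymes, was at 93.4 and 93.9 against 296 and 276 TPM (1.6 ± 0.12, adjusted p = 2.3e-07), and the de novo enzyme Dnmt3b at 60.1 and 63.3 against 153 and 150 TPM (1.28 ± 0.13, adjusted p = 4.5e-06). Uhrf1 and Dnmt1, which maintain methylation, were at 208 and 239 against 242 and 248 TPM and at 117 and 125 against 127 and 118 TPM, without a call. Dnmt3b was also on the list of primed and germ layer genes, where it and the Nodal antagonist Lefty1 (12.3 and 9.93 against 32.8 and 27 TPM) were the 2 of 11 members called higher. Nodal (56.2 and 57.6 against 44.6 and 37.4 TPM) and the neuronal tubulin Tubb3 (76.6 and 79.5 against 80.7 and 72.7 TPM) were not called. The log2 change of Nodal, -0.47 ± 0.11 (limma adjusted p = 0.0051), was short of the size rule alone. In the trophoblast list 7 of 18 members were higher and 1 lower, with Plac1 at 0.243 and 0.215 against 3.49 and 2.25 TPM, Plac8 at 6.35 and 5.87 against 16.4 and 18.9, Rhox6 at 0.862 and 1.43 against 4.97 and 4.01, and Fgfr2 at 2.75 and 3.26 against 9.55 and 8.79. Gata2 fell from 2.60 and 3.84 to 0.679 and 0.681 TPM. Of the 13 trophoblast members at 1 TPM or more in a library of each group, 4 were higher and none lower. Peg10 (125 and 153 against 166 and 201 TPM) and Lgals3 (44.8 and 44.1 against 46.1 and 45.0 TPM) were not called. Lgals3 lies on chromosome 14, whose members were lower as a whole (below). Cdx2 and Elf5, which define the lineage, were under the filter.

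Of the rest of the H3K9 machinery, Prdm16 alone was called. Over all members 4.86% were called higher and 2.04% lower, so lists this small would hold few calls. Of 22 genes for partners of the methyltransferases, none was higher and 1 was lower: Prdm16, an H3K9 methyltransferase gene, at 6.78 and 7.99 TPM in DKO and 3.17 and 3.19 in TKO (-1.001 ± 0.15, adjusted p = 1.3e-04), which lies at the threshold of size. Trim28, the corepressor that recruits Setdb1, was at 689 and 711 against 969 and 888 TPM (log2 change 0.41 ± 0.11, adjusted p = 0.016), and Zfp57, which guards imprints, at 391 and 395 against 325 and 314 TPM (-0.30 ± 0.10, adjusted p = 0.037). None of the 10 H3K9 demethylase genes was called (limma, none higher and 2 lower at an unadjusted p below 0.05), with Kdm1a at 161 and 170 against 155 and 171 TPM and Kdm3a at 67.0 and 75.5 against 76.9 and 89.6 TPM.

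Of 22 genes for nucleic acid sensing and the interferon response, 3 were lower and none higher. Among the 19 at 1 TPM or more in a library of each group, 2 were lower. Bst2, an antiviral membrane protein, was at 59.2 and 53.4 TPM in DKO and 17.1 and 15.0 in TKO (-1.75 ± 0.12, adjusted p = 8.2e-08). The class I histocompatibility gene H2-K1 was at 47.5 and 50.9 against 20.3 and 16.2 TPM (-1.39 ± 0.16, adjusted p = 1.7e-05), and Tmem173, which encodes the DNA sensing adaptor STING, at 3.61 and 2.97 against 0.917 and 0.575 TPM (-1.30 ± 0.20, adjusted p = 1.9e-04). These were all the called members of that list. Ifitm2 and Ifitm3 were at 827 and 781 against 664 and 503 TPM and at 348 and 373 against 220 and 185 TPM, without a call. The log2 change of Ifitm3, -0.83 ± 0.13 (limma adjusted p = 1.8e-04), was short of the size rule alone. Over all members 4.86% were called higher and 2.04% lower. No member of the p53 target (22), ATF4 (19) or proteasome (31) lists was called by limma. At an unadjusted p below 0.05, 4, 3 and 1 of these were higher and 5, 8 and 3 lower. Trp53 was at 429 and 436 against 446 and 413 TPM, and Bax at 505 and 452 against 530 and 429 TPM. Atf4 was at 551 and 574 against 508 and 539 TPM and Slc7a5 at 338 and 333 against 345 and 272 TPM. Psmb3, a proteasome subunit gene, was at 699 and 648 against 675 and 651 TPM and Psma7 at 641 and 568 against 647 and 569 TPM.

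Fibroblast markers, which feeder cells would bring, were low in all 4 libraries. Their sum over 15 genes was 6.94 and 7.10 TPM in DKO and 11.4 and 8.86 TPM in TKO, Col3a1, Fap and Prrx1 were at 0 throughout, and none of the 4 that passed the filter was called by limma, with 3 higher at an unadjusted p below 0.05. Twist1, among those 3, was at 1.31 and 1.63 against 3.40 and 1.73 TPM, and Thy1, which was not, at 2.48 and 2.32 against 2.38 and 1.74 TPM. Of 18 nuclear-retained RNAs, read as a sign of RNA quality, 1 was called: Rpph1, described below. Snhg1 was at 503 and 486 against 482 and 589 TPM and Snhg3 at 163 and 138 against 168 and 159 TPM.

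**Figure D3:**
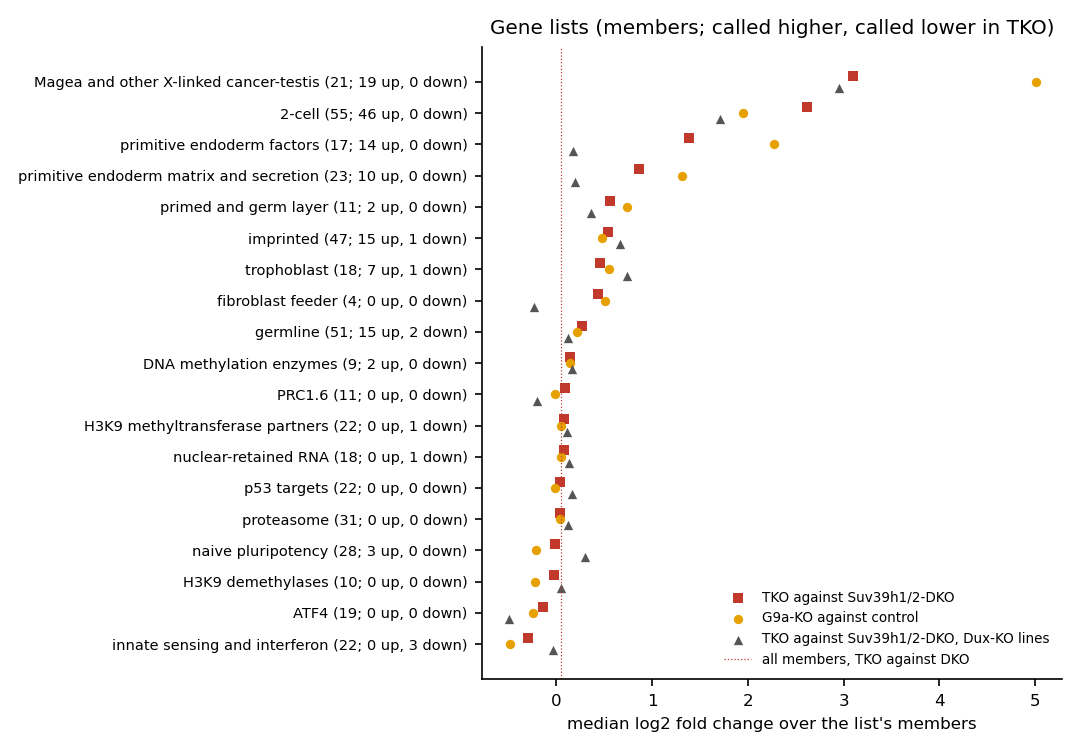
Median log2 fold change over the members of each gene list for TKO against Suv39h1/2-DKO (red squares), G9a-KO against control (yellow circles) and TKO against Suv39h1/2-DKO in the Dux-KO lines (grey triangles); labels give the members and how many were called higher or lower in the first comparison. The X-linked list has its highest median in G9a-KO, the 2-cell list in TKO, and both primitive endoderm lists are near 0 in the Dux-KO lines.

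The largest falls were single genes rather than families. Islr2, a neuronal membrane protein gene, was at 35.1 and 36.1 TPM in DKO and 5.31 and 3.06 in TKO (log2 fold change -2.85 ± 0.18, adjusted p = 2.3e-08). Ptrf, a caveolar coat gene, was at 44.1 and 48.2 against 8.46 and 7.69 TPM (-2.38 ± 0.16, adjusted p = 6.0e-08). Wdr86, the repressor gene Bcl6b, the calcium-binding protein gene Tesc, the homeobox gene Nkx6-3 and Mpi, which encodes mannose phosphate isomerase, fell by 2.22, 2.18, 2.10, 2.05 and 1.9 on the log2 scale. All 5 had DKO libraries at 13.6 TPM or more and TKO libraries at 5.89 TPM or less. Plac9a, which like Rec8 lies on chromosome 14, was at 10.8 and 9.86 against 4.53 and 0 TPM, and its call was lost when 1 library was left out (adjusted p = 0.18 without the second TKO library and 0.066 without the first DKO library).

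At the top of the falls stood Pnp2 and Rpph1, both on chromosome 14. Pnp2, a purine nucleoside phosphorylase gene, was at 20.4 and 19.23 TPM in DKO and listed at 0 in both TKO libraries (adjusted p = 1.8e-10), and Rpph1, the RNA component of RNase P, at 24.6 and 22.6 against 1.48 and 0 TPM. They stood out on a chromosome whose genes were lower as a whole. Of 430 members on chromosome 14, 368 had a log2 change below 0, the median was -0.41, and 46 (10.7%) were called lower. The other 19 chromosomes with 100 or more members had medians from -0.02 to 0.20 and 0.216% to 2.94% called lower. The shift ran along the whole chromosome, with medians of -0.46, -0.46, -0.40 and -0.34 in 4 successive equal stretches of its members.

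The low values of chromosome 14 did not follow the G9a label across the series. Set against the control mean, its median gap to the other chromosomes was -0.49 to -0.37 on the log2 scale in the 6 libraries of the first table that lacked both G9a and Suv39h1/2, and -0.04 to 0.09 in the other 12 libraries, G9a-KO and Suv39h1/2-DKO included. Pnp2 was at 0 to 0.241 TPM in those 6 and at 9.93 to 20.4 TPM in the other 12. The ranges of Rpph1 overlapped, at 0 to 13.71 TPM in those 6 and 12.15 to 200 TPM in the other 12. In the Dux-KO lines the same low values stood in all 16 libraries that lacked Suv39h1/2, with or without G9a (gap -0.58 to -0.45, Pnp2 0 to 0.198 TPM), and not in the 16 that kept Suv39h1/2 (gap -0.02 to 0.10). Rpph1 overlapped in the Dux-KO lines too, at 0.673 to 24.5 TPM without Suv39h1/2 and 5.13 to 72.7 TPM with them. Of the 46 falls on chromosome 14, 9 were called lower in G9a-KO against control, compared with 157 of the 207 falls elsewhere. What lowers chromosome 14 was not tested. Without its members, a choice made after seeing the data, the counts were 590 higher and 207 lower.

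**Figure D4:**
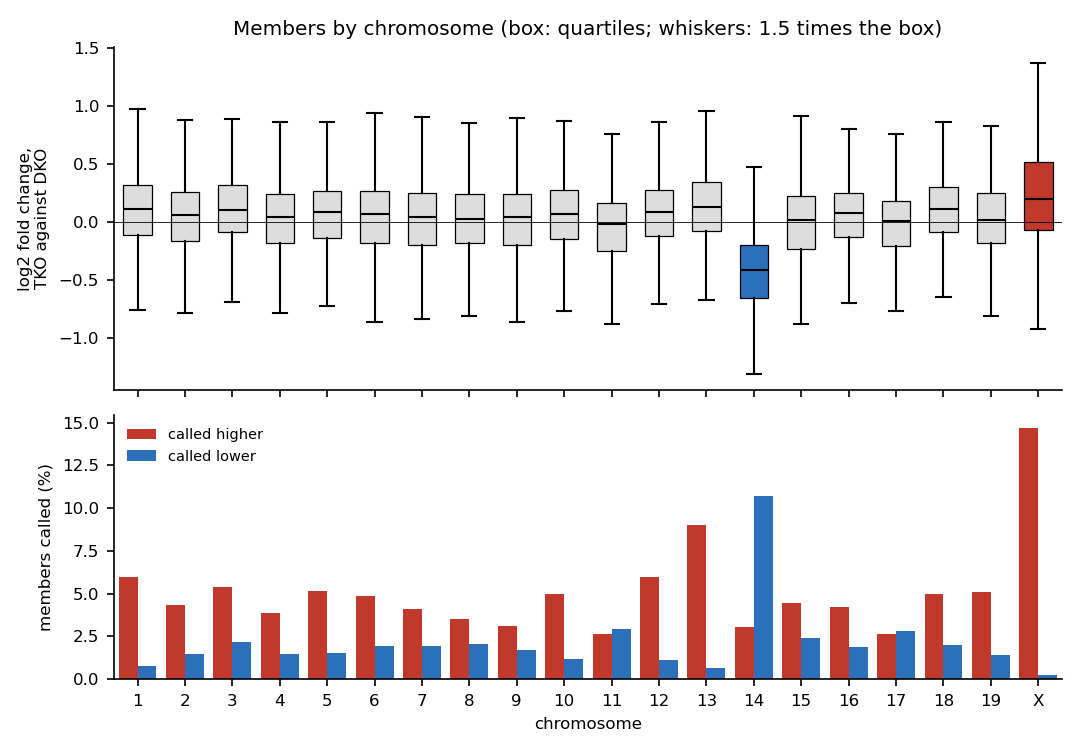
Members by chromosome in TKO against Suv39h1/2-DKO: boxes give the quartiles of the log2 fold change with whiskers to 1.5 times the box (above), and bars the percentage called higher or lower (below). Chromosome 14 (blue box) is the only one with its upper quartile below 0 and has 10.7% of its members called lower, and the X chromosome (red box) has 14.7% called higher.

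The X chromosome had the largest share of members called higher. Of its 462 members 68 (14.7%) were called higher and 1 lower, with a median log2 change of 0.20, whereas the other chromosomes had 2.65% to 9.03% called higher. Its median was near that of chromosome 13 (0.13), and was 0.24 in G9a-KO against control, where the median of chromosome 14 was 0.05. Many called genes were neighbours. Counting members in RefSeq order, 26 runs of 3 or more neighbouring members were called higher, with 120 genes in them, and 6 runs were called lower, with 22 genes. Runs of rises held the Magea genes at chrX:154923895-155063151 (5 members), Xlr3, Xlr4 and Xlr5 genes at chrX:73033981-73222453 (8), the Rhox genes at chrX:37213804-37901770 (5), Zscan4 genes at chr7:10794241-11402318 (5), Tcstv genes at chr13:119827961-120318261 (7) and aldo-keto reductase genes, Akr1c18 to Akr1e1, at chr13:4132615-4609164 (6), all in GRCm38.p6. Close copies share reads, so such runs are not independent counts.

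The longest run of falls was the Hoxa cluster at chr6:52169059-52218573, where Hoxa3, Hoxa4, Hoxa5, the noncoding Mira and Hoxa7 were called lower as neighbours. These homeobox genes, which pattern the body axis, were low in all libraries and were named after their values were seen. Hoxa5 was at 7.36 and 5.22 TPM in DKO and 1.20 and 1.09 in TKO (-1.75 ± 0.21, adjusted p = 1.8e-05), and Hoxa3, Hoxa4 and Hoxa7 fell by 1.26, 1.5 and 1.05. Hoxa9 and Hoxa10 had log2 changes of -0.96 and -0.86, without a call. In G9a-KO against control none of these 6 was called, though all were lower at a limma adjusted p below 0.05. Their changes were short of the size rule, at -0.997 for Hoxa5 and -0.88 for Hoxa3. The difference between backgrounds was not called for any of the 6. A further run of falls held the class I genes H2-Q4, H2-Q7 and H2-Q10 at chr17:35379617-35474563, and another on chromosome 14 the proteasome activator genes Psme1 (131 and 136 against 56.8 and 56.5 TPM) and Psme2 (66.3 and 73.6 against 22.3 and 17.9 TPM).

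The same members were then read for G9a loss in cells with intact Suv39h genes. In G9a-KO against control 687 members were higher and 509 lower, where the background over all genes tested was 5.52% and 3.74%. Of the 603 members that rose in TKO, 467 were called higher in G9a-KO, 136 were not called and none was lower. Of the 253 that fell, 166 were called lower, 87 were not called and none was higher. These comparisons share no library. The median log2 change of the 603 was 1.52 in TKO against DKO and 1.63 in G9a-KO against control, and that of the 253 was -1.23 and -1.18. Across the 12418 members, which are not independent replicates, the log2 changes of both comparisons correlated with r = 0.823, as a description.

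A call in 1 background and not in the other does not show a difference, so the difference of the effects was tested itself. Every genotype in this test came under a single line name, so differences of background and of line cannot be told apart. It was called for 125 members in the direction of TKO and for 134 in the direction of G9a-KO, against a background of 0.923% and 1.1% of all genes tested. Under a rescaling of each library by median ratios the counts were 98 and 160. Of the 603 members that rose in TKO, 54 had a larger and 59 a smaller change than in G9a-KO, which is a description only, since this test uses the same TKO and DKO libraries. In the 2-cell list 16 of 55 members had a larger change with Suv39h1/2 absent and none a smaller one, whereas in the X-linked list 16 of 21 had a smaller change and none a larger one. In the Dux-KO lines the median log2 change of the X-linked list from DKO to TKO was 2.96, against 3.10 here. Magea2, Magea3, Magea5, Magea6 and Magea8 had larger changes there, and Xlr3b, Xlr5b and Xlr5c smaller ones. These differences between the sets of lines were not tested.

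For the 2-cell genes the sum of the list started lower without Suv39h1/2, at 137 and 153 TPM in DKO against 310 and 331 TPM in control, and ended at 892 and 991 TPM in TKO against 1230 and 1292 TPM in G9a-KO. Zscan4f was at 32.4 and 38.2 TPM in control and 173 and 185 in G9a-KO, against 2.39 and 3.46 in DKO and 80.9 and 85.2 in TKO, so that it ended lower in TKO than in G9a-KO although its change was larger by 2.12 ± 0.20 on the log2 scale (adjusted p = 2.9e-05). Gm2016 and Gm5662 had larger differences than Zscan4f, 2.61 and 2.38, and B020031M17Rik and BB287469 smaller ones, 2.07 and 2.01. End levels were not lower in TKO for all: Gm2016 ended at 31.5 and 44.1 TPM in TKO and 28.1 and 33.8 in G9a-KO, and Pramel7 at 8.12 and 8.09 TPM in G9a-KO and 26.0 and 29.2 in TKO from like starts (0.403 and 0.363 in control). Calcoco2, an autophagy receptor gene outside the lists, moved in opposite directions: from 59.4 and 58.8 TPM in control to 22.6 and 25.1 in G9a-KO, and from 48.7 and 52.0 in DKO to 87.8 and 91.0 in TKO (difference 2.09, adjusted p = 4.0e-06).

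For the X-linked antigens the sums were alike at the start, 47.1 and 50.9 TPM in DKO and 51.2 and 58.2 TPM in control, and differed at the end, 258 and 309 TPM in TKO against 1049 and 1145 TPM in G9a-KO. Magea2 was listed at 0 in control and DKO and reached 103 and 129 TPM in G9a-KO but 10.1 and 12.8 TPM in TKO (adjusted p of the difference = 4.0e-06). Magea8 reached 165 and 186 TPM in G9a-KO against 26.4 and 29.3 in TKO, and Xlr5c reached 80.9 and 62.5 against 8.50 and 8.78 TPM. Rian and Meg3 likewise ended at 80.6 and 86.1 and at 69.7 and 59.7 TPM in G9a-KO, above their TKO values, whereas H19 ended lower in G9a-KO (102 and 95.3 TPM) than in TKO. Some of these differences depend on the pseudocount, as the closing section gives. Of 17 primitive endoderm factor genes 14 were called higher in each background, and 2 had a smaller change in TKO. These were Gata4, a factor of this lineage that lies on chromosome 14 (22.9 to 23.8 TPM in DKO, 58.8 to 66.3 in TKO, 12.6 to 13.2 in control and 83.4 to 94.6 in G9a-KO), and Cited1 (2.08 and 2.07 TPM in control, 13.6 and 12.4 in G9a-KO). Gata4 was named after its values were seen.

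**Figure D5:**
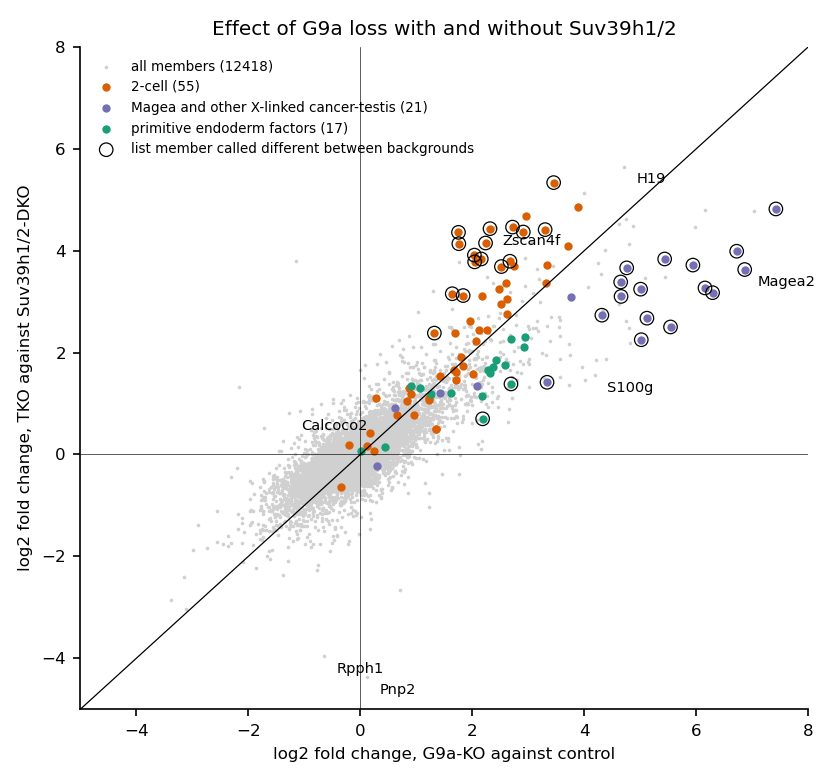
Log2 fold change after G9a loss in cells with intact Suv39h1/2 (x axis) and without them (y axis) for the 12418 members; the line marks equal effects and circles mark listed genes whose effects were called different. The 16 circled 2-cell genes (orange) lie above the line and the 16 circled Magea and other X-linked genes (purple) below it, and Pnp2 and Rpph1 lie far down the y axis.

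Falls differed as well. The 4 members that fell in TKO with a smaller fall than in G9a-KO were Cdx1, Dmrtb1, Grik3 and Tgm1: Grik3, a glutamate receptor gene, changed by -1.39 in TKO and -2.90 in G9a-KO, and Tgm1, a transglutaminase gene, by -1.88 and -2.995. Bst2, Bcl6b and Mpi fell more with Suv39h1/2 absent, at -1.75 against -0.50, -2.18 against -0.77 and -1.9 against -0.55. Of the 134 members with a difference in the direction of G9a-KO, 31 lay on chromosome 14.

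The second set of lines gave DKO and TKO again, labelled as Dux-KO and at dose label 0. Ehmt2 fell there by 3.91 on the log2 scale. Of the members, 12356 were tested in that table, and 475 were higher and 204 lower in TKO, where the background was 3.97% and 1.61% of all genes tested. Of the 603 members that rose in the first lines, 311 were called higher, 283 were not called, 2 were lower and 7 were not tested. Of the 253 that fell, 72 were called lower, 180 were not called and 1 was not tested. The members with opposite calls were Cdkn2a, a cell cycle inhibitor gene (11.1 and 8.92 against 25.4 and 21.6 TPM in the first lines, 30.5 and 26.97 against 14.3 and 10.5 in the second), and the galectin gene Lgals2. The tables were normalised separately and differ in line and in the transgene, so levels are not compared between them, and the difference between the sets of lines was not tested.

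In these Dux-KO lines 30 of 54 measured members of the 2-cell list were called higher, among them 28 of the 46 called higher in the first lines. Zscan4f was at 1.89 and 3.06 TPM in DKO and 32.6 and 25.1 TPM in TKO. The X-linked list was called higher for 19 of 21, with Magea8 at 0 and 0.0456 against 171 and 130 TPM, and imprinted genes for 18 of 47, with H19 at 17.9 and 9.06 against 263 and 200 TPM. The primitive endoderm genes did not follow: 1 of 17 factor genes was higher, with a median log2 change of 0.17, and Pdgfra was at 13.1 and 13.2 against 11.9 and 14.2 TPM and Dab2 at 45.3 and 60.1 against 46.1 and 61.8 TPM. The median of chromosome 14 was 0.02, both genotypes having the low values in these lines. Dmc1 and Stag3 fell again, by 1.74 and 2.11.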

How the data were processed

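Polyadenylated RNA of mouse embryonic stem cells was sequenced with a stranded TruSeq mRNA kit as paired-end reads, per the labels' protocols. The build mm10 and the tools SAMtools 1.9, RSEM 1.3.1, STAR 2.7.10b and Bowtie2 2.3.4.1 are listed, per the submitters' processing notes. The deposited values are TPM per gene, made by the authors. For the annotation used and for reads with several matches, the procedure is not given in the sources. TPM keeps no counts, so depth is unknown and no count test was run.

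In each table the genes that reached 1 TPM in 2 or more libraries were fitted with limma 3.58.1 (R 4.3.3, data.table version 1.17.8) on log2(TPM+1), a pseudocount of 1, letting the variance follow the mean. The fit of the first table used 18 libraries in 9 groups and that of the second 32 in 16 groups, each with a shared estimate of the spread. This scale understates the change of low genes. Adjusted p-values (Benjamini-Hochberg) run over all genes tested, and calls had to be under 0.05 on that scale with a log2 change of 1 or more in size. The difference between backgrounds is the change from DKO to TKO minus the change from control to G9a-KO. No column lacked a sample (0), and 2 construct entries of the second table were left out. The fit was tested on simulated data. Gene positions and promoters come from RefSeq (GRCm38.p6), and plots from Python 3.11.15 and matplotlib 3.10.9.

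The members and gene lists were chosen with earlier results of these data known. Named genes were the 4 targeted genes, the 12 largest rises and 12 largest falls with library values that do not overlap (predicted names left out), up to 4 called and 2 uncalled members of each list, and up to 6 genes each way for the difference. Genes named after their values were seen are marked, or stand as examples of a run, of opposite calls, or of a list's rare direction. Some genes that this rule names are not reported here. Alternatives were a pseudocount of 0.1, no filter, median-ratio rescaling, the replicate block, adjusted p alone, fits on the compared groups or on members alone, and leaving out each library. Leaving out chromosome 14, and applying these alternatives to the lists, were chosen after seeing the data.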

Additional observations from a re-analysis of the deposited data

Results flagged for a closer look

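For 34 of the named genes the effect of G9a loss differed between cells without and with Suv39h1/2, by limma's test of the difference itself. Values in brackets are the log2 change from DKO to TKO minus that from control to G9a-KO, so a positive value is a change that was higher with Suv39h1/2 absent. Line and genotype cannot be told apart in these values.

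Genes of the 2-cell list and their neighbours had positive values: Gm2016 (2.61), Gm5662 (2.38), Zscan4f (2.12), B020031M17Rik (2.07), BB287469 (2.01), Zscan4c (1.91), Gm21304 (1.88), Pramel7 (1.75), Obox4 (1.46) and Usp17lc (1.11). Values were also positive for Calcoco2 (2.09), Stra8 (1.12), Tubb3 (1.01) and Lgals3 (1.002). Stra8 fell in G9a-KO from 330 and 345 to 89.4 and 91.1 TPM, and was not called in TKO.

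X-linked and germ cell genes had negative values: Magea2 (-3.24), Magea3 (-3.12), Magea6 (-3.04), Xlr5c (-2.89), Magea5 (-2.73), Magea8 (-2.60), Xlr5b (-2.22), Rhox5 (-1.66), Rhox2a (-1.63) and Xlr3b (-1.60). The imprinted RNAs were Meg3 (-1.52) and Rian (-1.35), and the primitive endoderm genes S100g (-2.63) and Cited1 (-1.49). S100g rose in G9a-KO from 2.67 and 1.57 to 57.3 and 52.9 TPM, and its DKO libraries already stood at 9.25 and 9.34 TPM. Among genes that fell, values were negative for Pnp2 (-4.50), Rpph1 (-3.32), Bcl6b (-1.41), Mpi (-1.35), Bst2 (-1.24) and Ptrf (-1.003). Pnp2 and Rpph1, and Lgals3 above, lie on chromosome 14, whose members were lower as a whole in TKO.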

How the results depend on the processing

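Under pseudocount 0.1 the members called lower rose to 432 in TKO against DKO and 861 in G9a-KO against control, and the members with a difference in the direction of TKO to 224. Under adjusted p alone the counts higher and lower were 1798 and 1498 in TKO against DKO, 1998 and 2402 in G9a-KO against control, 309 and 261 for the difference, and 1084 and 763 in the Dux-KO lines. The other alternatives left these counts within 1.5 times. Leaving out a library or chromosome 14 gave 590 to 623 higher and 207 to 320 lower in TKO against DKO. No named gene reversed. Of 1160 values of named genes in TKO against DKO, 9 lost and 6 gained a call. The call of Plac9a was lost with only the compared groups fitted (adjusted p = 0.094), that of Spink1 without the first DKO library (adjusted p = 0.054), and Prdm16, Hoxa7 and Spic fell under the size rule when a library was left out. For the difference, Rian, Zscan4c, Xlr3b, Xlr5b and Xlr5c lost the call under pseudocount 0.1 (adjusted p = 0.19, 0.077, 0.085, 0.46 and 0.094), and Usp17lc, Ptrf, Tubb3 and Lgals3 when single libraries were left out. The causes were not tested. With the replicate number as a block, 603 members were higher and 257 lower in TKO against DKO, 688 and 512 in G9a-KO against control, 137 and 146 for the difference, and 497 and 211 in the Dux-KO lines. Same-numbered libraries of TKO and DKO deviated together with r = 0.315 and those of G9a-KO and control with r = 0.389. Over 36 pairs of groups r ran from -0.0585 to 0.622, and 25 were over 0.1. With 2 libraries a group and no label that ties a number to a culture or day, the numbers were not treated as pairing the samples. Read depth, which would limit low genes, is unknown from TPM.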
